A study of Mus musculus with 12 samples.

Results

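Interleukin-9 (IL-9), a cytokine made by T cells and mast cells, was compared with no stimulation in BW5147, a T cell lymphoma line from a mouse thymus. The 4 arrays of this comparison, of 12 in the series, were chosen by their labels: unstimulated 1 and unstimulated 2, and IL-9 1 and IL-9 2, which received 100 U/ml of IL-9 for 8 h. No dexamethasone (Dex, a synthetic glucocorticoid) was given to these 4 arrays, per the labels. The groups with Dex alone and with Dex and IL-9 (2 arrays each, Dex at 100 ng/ml, IL-9 as above) and the chemokine CCL1 (100 U/ml, 1 array in the same table) are used beside them. All groups share the cell line and the time. Arrays carry a number, 1 or 2, but whether each is a separate culture is not stated, and the spread behind the p-values may therefore be technical. Both arrays numbered 1 without Dex carry high signals of glucocorticoid targets, described at the end.

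IL-9 binds a receptor made of its own alpha chain and the common gamma chain. The kinases JAK1 and JAK3 on these chains phosphorylate STAT proteins such as STAT3 and STAT5, which enter the nucleus and raise target genes, among them SOCS proteins that shut the kinases off. IL-9 is known as a growth and survival factor of thymic lymphoma lines, in which it protects from death induced by glucocorticoids.

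The values are array signals. Differences between IL-9 and unstimulated arrays are given as log2 of signal + 16, with a standard error (SE). Adjusted p-values come from limma, with the Benjamini-Hochberg method over 13575 probe sets and a threshold of 0.05. With 2 arrays against 2, an exact permutation test of 1 gene cannot give a two-sided p below 0.333, so each p comes from the fit in which the 6 groups share their spread. A signal of 6.32 marks the lower limit of the probe sets that were kept. In bulk RNA, more cells that make a transcript and more transcript per cell cannot be told apart.

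T cell markers matched the label in part. Of 16 T cell genes on the arrays, 10 had a signal above 50 in at least 1 of the 4 arrays, among them Ptprc, Thy1, Lat, Cd3g and Cd3e, whereas Cd5, Cd2, Cd247, Rag1 and Ptcra stayed below 8. All 6 B cell, 9 macrophage and granulocyte and 7 NK cell markers were below 50 in the 4 arrays. The summed signals ranged from 25.6 and 13.4 in unstimulated arrays to 16.01 and 16.7 in IL-9 arrays for B cells, from 36.5 and 39.8 to 40.03 and 46.1 for macrophages and granulocytes, and from 16.5 and 19.1 to 3.37 and 17.8 for NK cells. Of 8 stromal markers Pdgfrb alone was above 50, with signals of 391 and 293 in unstimulated and 218 and 190 in IL-9 arrays.

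The upstream sequences of the 3 genes that passed the threshold, and of Ccr9, the gene with the largest negative difference, are shown because these 4 genes mark the response. Each window runs from 250 bases before to 50 bases after a transcript start (RefSeq, mouse build GRCm38.p6, printed 5′ to 3′ on the strand of the gene). Capitals mark matches, on either strand, to TTCNNNGAA (a STAT motif), AGAACA (the hexamer of the glucocorticoid receptor) or GGGA and CC with any 4 bases between them (an NF-kB motif). RefSeq lists 6 starts for Sgk1, of which the 2 with the STAT match and with the most hexamers are printed.
Bcl3, chr7:19822706-19823005, minus strand: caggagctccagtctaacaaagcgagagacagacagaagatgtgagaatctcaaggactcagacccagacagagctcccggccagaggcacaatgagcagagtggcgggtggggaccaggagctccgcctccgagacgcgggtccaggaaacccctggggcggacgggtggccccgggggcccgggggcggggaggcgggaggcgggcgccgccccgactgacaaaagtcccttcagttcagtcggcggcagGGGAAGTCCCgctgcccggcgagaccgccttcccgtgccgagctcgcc
Gzma, chr13:113100932-113101231, minus strand: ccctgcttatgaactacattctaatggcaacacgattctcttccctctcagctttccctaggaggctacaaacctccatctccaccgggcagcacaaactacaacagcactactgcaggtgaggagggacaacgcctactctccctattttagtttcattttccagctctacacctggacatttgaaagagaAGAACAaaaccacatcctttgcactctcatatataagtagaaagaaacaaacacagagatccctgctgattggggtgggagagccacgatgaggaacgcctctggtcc
Sgk1, chr10:21881934-21882233, plus strand: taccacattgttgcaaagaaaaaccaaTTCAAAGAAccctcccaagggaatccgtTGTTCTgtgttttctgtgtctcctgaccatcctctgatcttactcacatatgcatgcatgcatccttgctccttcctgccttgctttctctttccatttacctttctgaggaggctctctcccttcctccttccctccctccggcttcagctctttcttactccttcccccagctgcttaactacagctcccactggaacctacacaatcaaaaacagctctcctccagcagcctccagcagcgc
Sgk1, chr10:21993640-21993939, plus strand: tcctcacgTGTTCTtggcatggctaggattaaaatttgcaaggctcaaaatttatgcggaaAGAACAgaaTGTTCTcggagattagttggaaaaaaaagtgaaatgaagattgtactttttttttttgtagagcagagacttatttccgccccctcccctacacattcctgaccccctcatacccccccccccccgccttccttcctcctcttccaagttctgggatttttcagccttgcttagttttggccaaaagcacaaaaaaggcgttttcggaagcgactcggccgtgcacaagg
Ccr9, chr9:123766961-123767260, plus strand: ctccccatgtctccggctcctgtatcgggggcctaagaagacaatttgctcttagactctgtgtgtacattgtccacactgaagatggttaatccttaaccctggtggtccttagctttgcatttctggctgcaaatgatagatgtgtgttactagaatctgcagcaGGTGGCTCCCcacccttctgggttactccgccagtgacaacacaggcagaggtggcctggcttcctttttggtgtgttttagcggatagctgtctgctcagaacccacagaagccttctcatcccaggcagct

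Of the 32851 windows of 300 bases in the table, 8.30% held the STAT motif, 19.0% the hexamer and 20.7% the NF-kB motif. The Bcl3 window held GGGAAGTCCC, which reads as the NF-kB motif on both strands, beside the transcript start. The Gzma window held 1 hexamer. For Sgk1 the STAT match and 1 hexamer lay in the window of the most upstream start, and a window nearer to the gene held 3 hexamers, a pair of them facing each other. Of the Sgk1 windows not printed, that starting at 21991973 held 1 hexamer. Those starting at 21978422, 21985854 and 21994416 held no match. The shares are per window, so they are no measure for a gene with several windows. In the Ccr9 window the only match was to the NF-kB motif. These matches describe letters and show no binding.

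Bcl3, Gzma and Sgk1 rose with IL-9, and they were the only probe sets past the threshold: 3 of 13575 tested, 0.0221%, all higher and none lower. At an unadjusted p under 0.05 there were 664 probe sets, where 679 would be counted by chance. Without the array IL-9 2 the count was 5, and Ndrg3 passed as well. The signals of Bcl3, an atypical IkB protein that joins NF-kB p50 and p52 dimers in the nucleus, were 6.08 and 5.33 in unstimulated arrays and 159 and 158 in IL-9 arrays. Both unstimulated signals lay below the limit of 6.32, so the probe set was kept through its IL-9 arrays, and the groups were far apart. The size of the difference therefore depends on the constant added before log2. Within each array number the difference was 2.99 (number 1) and 3.03 (number 2), and the fitted difference was 3.01 (SE 0.22, adjusted p = 0.000206). With 64 or 1 added in place of 16 it was 1.67 or 4.57, past the threshold in both cases.

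Gzma encodes granzyme A, a serine protease of cytotoxic granules. It gave 20.8 and 26.9 without and 170 and 192 with IL-9, with differences of 2.34 and 2.28 within the numbers and 2.31 in the fit (SE 0.20, adjusted p = 0.000619), or 1.48 with 64 added. The kinase Sgk1, which is related to AKT and acts downstream of PI3K and mTORC2, gave 33.0 and 47.1 without and 234 and 226 with IL-9. Its differences were 2.35 and 1.94 within the numbers and 2.14 in the fit (SE 0.19, adjusted p = 0.000709). Both genes had IL-9 arrays well above all unstimulated arrays. Each of these 3 genes was named by 1 probe set only.

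Ccr9, the receptor of the chemokine CCL25 that guides thymocytes and gut-homing T cells, had signals of 262 and 253 in unstimulated and 57.7 and 84.6 in IL-9 arrays. The groups were separate, and the difference was -1.92 and -1.42 within the numbers. It missed the threshold in the fit (-1.67, SE 0.25, adjusted p = 0.0905). It is the main probe set of the gene by signal. The other 2 Ccr9 probe sets, which were dimmer, had differences of -1.0 (adjusted p = 0.532) and -0.48 (adjusted p = 0.996). In the dimmest of them the signals of number 2 were 15.3 without and 16.6 with IL-9.

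**Figure D1:**
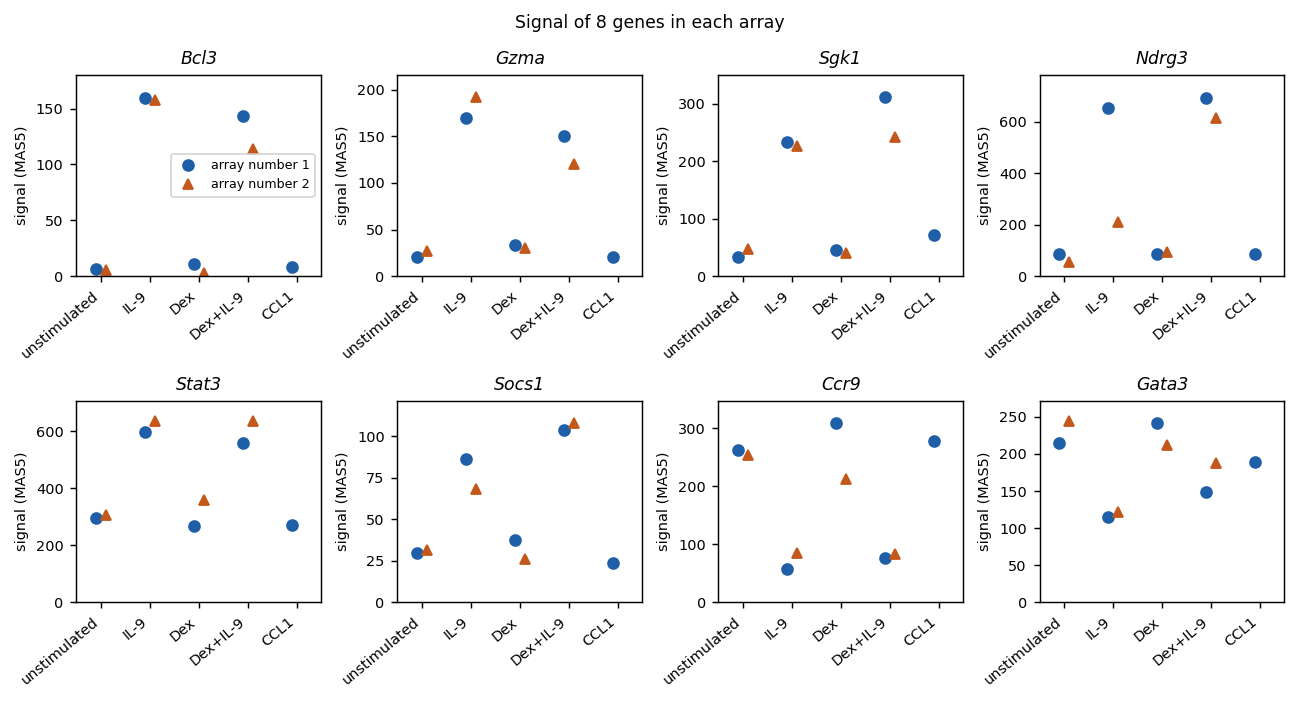
Signal (vertical axis, linear, from 0) of 8 genes in unstimulated, IL-9, Dex, Dex+IL-9 and CCL1 arrays, each point 1 array, circles for number 1 and triangles for number 2. Bcl3 lies at 159 and 158 with IL-9 and at 6.08 and 5.33 without, and Ccr9 falls the other way, from 262 and 253 to 57.7 and 84.6.

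The remaining response was described gene by gene through the agreement of the numbered pairs: IL-9 1 against unstimulated 1, and IL-9 2 against unstimulated 2. These pairs share no array. Over 7507 genes, with 1 probe set each, the differences of the pairs had a correlation of 0.19 (Pearson r across genes, which are not independent replicates), and their SDs were 0.32 and 0.30 log2. The median absolute difference within the pairs was 0.19 and 0.18, as large as between the replicates of a group, 0.18 for unstimulated and 0.20 for IL-9. In number 1, 22 genes (0.293%) were higher by at least 1 log2, and in number 2 also 22 (0.293%). The 6 genes shared by both were Bcl3, Gzma, Sgk1, Ndrg3, Arid5a and Tha1, 27.3% of each list and 0.0799% of all genes. In the other direction the counts were 36 in number 1 (0.480%) and 7 in number 2 (0.0932%), and Ccr9 was the only shared gene, 2.78% and 14.3% of the lists and 0.0133% of all genes. Of the 36 genes, 15 were higher with IL-9 in number 2.

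**Figure D2:**
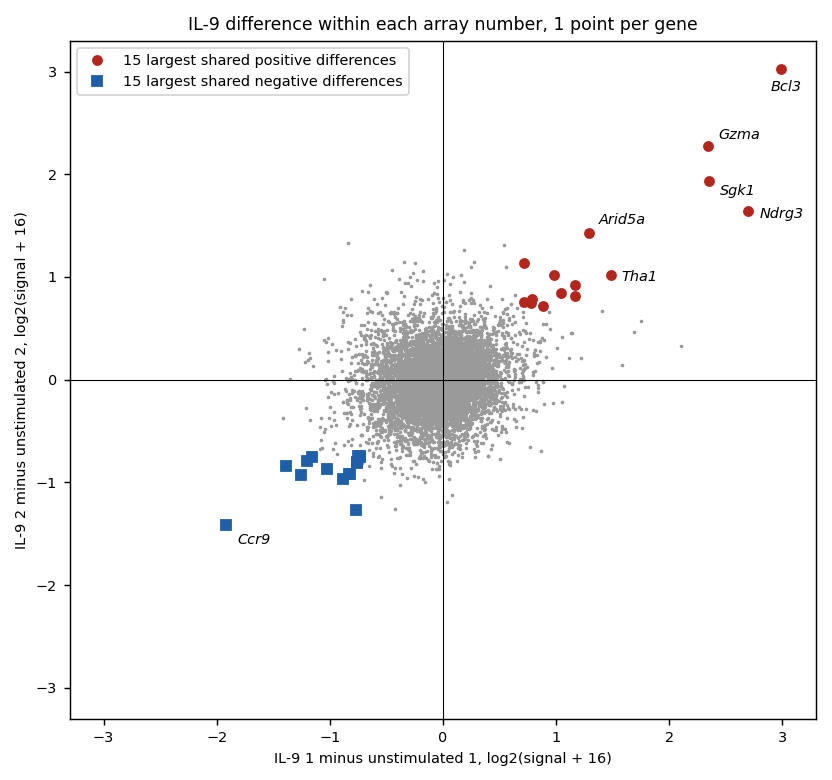
Difference between IL-9 1 and unstimulated 1 (horizontal) and between IL-9 2 and unstimulated 2 (vertical), both in log2(signal + 16), with 1 point per gene for 7507 genes. Red circles and blue squares mark the 15 largest differences shared by both pairs in each direction, among them Bcl3 at 2.99 and 3.03 and Ccr9 at -1.92 and -1.42.

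The 15 genes with the largest positive difference in both pairs, ranked by the smaller of the 2, were described next. They were chosen on these 4 arrays, so their values here are a description. After Bcl3, Gzma and Sgk1 came Ndrg3, a member of the NDRG family whose relatives are substrates of SGK kinases, with 87.0 and 56.3 in unstimulated and 653 and 210 in IL-9 arrays. Its IL-9 arrays were both higher, but array 1 was far above array 2, and the difference of 2.17 (SE 0.38) did not pass (adjusted p = 0.237). A second Ndrg3 probe set gave 76.2 and 70.8 against 569 and 175.

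Arid5a, an RNA-binding protein that stabilises transcripts such as those of IL-6 and STAT3, had 120 and 70.0 without and 317 and 216 with IL-9 (1.36, SE 0.23, adjusted p = 0.237). Stat3 itself had 296 and 306 without and 600 and 637 with IL-9, close to a doubling in both pairs (1.00, SE 0.18, adjusted p = 0.264). Of its other probe sets 1 had a difference of 0.53 and 1, near background, of -0.031. Socs1, which inhibits JAK kinases, had 29.7 and 31.8 against 86.2 and 68.1 (0.99, SE 0.22, adjusted p = 0.608). For Jak3, the kinase bound to the common gamma chain, the signals were 22.5 and 19.9 against 47.2 and 62.8 (0.92, SE 0.20, adjusted p = 0.583). None of these genes passed, and in each the groups did not overlap.

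Among the others were Ptger4, a receptor of prostaglandin E2, with 272 and 246 against 477 and 423 (0.76, SE 0.15, adjusted p = 0.417), and Stk17b, a kinase that dampens T cell receptor signals, with 276 and 153 against 583 and 287. Stk17b differed as much between numbers as between treatments. Gadd45b, a stress-induced activator of the p38 pathway, had 12.1 and 33.3 against 46.8 and 77.4, and Tha1, a threonine aldolase, 6.22 and 3.63 against 46.0 and 23.7. The Tha1 difference was 1.25, and 0.51 or 2.56 with 64 or 1 added. Prss44, Tfr2 and Prtn3, a testis protease, a transferrin receptor and a neutrophil protease, stayed below 24 in all 4 arrays. All 15 genes had IL-9 arrays above unstimulated arrays, as 16.3% of all genes did. The smallest difference among them was 0.71 for Jak3, and the next gene, Tufm, had 0.69.

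On the negative side, Ccr9 was followed by 14 genes with at least 0.74 in both pairs, the next being Sema4b at -0.73. Gata3, a transcription factor of T cell development and of type 2 helper T cells, had 215 and 245 without and 115 and 122 with IL-9 (-0.87, SE 0.22, adjusted p = 0.782). Ccng2, a cyclin linked to cell cycle arrest, had 105 and 59.0 against 36.3 and 27.4 (-1.0, SE 0.24, adjusted p = 0.769). Mxd4, a partner of MAX that opposes MYC, had 66.2 and 33.8 against 24.3 and 11.2 (-0.95, SE 0.28, adjusted p = 0.963). Dusp10, a phosphatase of p38 and JNK, had 105 and 77.3 against 55.8 and 37.0 (-0.79, SE 0.21, adjusted p = 0.862).

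Cerk, which makes ceramide-1-phosphate, had 68.1 and 89.8 against 31.3 and 40.1, and Tktl1, related to transketolase, 83.7 and 62.5 against 22.0 and 27.8. Cox15, needed for heme A synthesis, had 197 and 159 against 73.4 and 75.4, but its other probe sets had differences of -0.43, -0.079 and 0.11. Pcm1, a protein of centriolar satellites, had 101 and 98.7 against 47.1 and 42.5, and its 4 other probe sets lay between -0.29 and -0.050. Bbip1, Tst, N4bp2l1, Ahsg, Nav2 and Rasl10a completed the list. None of these 14 genes passed the threshold. In 14 of the 15 genes, Ahsg excepted, both IL-9 arrays were below both unstimulated arrays, as in 19.6% of all genes.

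The arrays with Dex gave a second measure, Dex+IL-9 against Dex, number by number. They were not used to rank these genes, but they entered the filter on low signals and the choice of probe set. Of the 15 genes with positive differences, 13 were higher in both Dex pairs (22.2% of all genes were), and their median difference was 1.27 against -0.032 over all genes. Bcl3, Tha1, Prtn3, Prss44 and Tfr2 had a mean below the filter limit in unstimulated and Dex arrays and so passed it through arrays with IL-9. Without these 5 genes, a choice made after seeing the data, all 10 others were higher in both Dex pairs, with a median of 1.31. The exceptions among the 15 were Prss44 and Tfr2. Bcl3 (2.7, adjusted p = 0.000461), Sgk1 (2.32, adjusted p = 0.000461) and Gzma (1.66, adjusted p = 0.0124) passed there too, 3 of 13575 probe sets (0.0221%). Ndrg3 had 85.8 and 93.1 with Dex and 694 and 616 with Dex and IL-9 (2.67, adjusted p = 0.0541), with close replicates in both groups. Socs1 had 37.8 and 26.1 against 104 and 108 (1.36, adjusted p = 0.0959).

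Of the 15 genes with negative differences, 12 were lower in both Dex pairs (31.7% of all genes were), with a median of -0.57. Tst passed the filter only through arrays without IL-9, and without it the count was 12 of 14 and the median -0.73. Ccr9 had 309 and 213 against 76.1 and 84.0 (-1.51, adjusted p = 0.116). Mxd4 (-1.15), Bbip1 (-1.10) and Dusp10 (-1.01) had differences as large as without Dex. Gata3 had 241 and 212 against 148 and 188, with pairs of -0.65 and -0.16. Cox15, Pcm1 and Tst were the exceptions: Pcm1 had 55.7 and 26.8 with Dex and 48.9 and 63.3 with Dex and IL-9. The array Dex 2 stands apart in some transcripts, such as Ptprc, at 1510 against 2848 in Dex 1. In the pairs numbered 1 alone, 14 of 15 positive and 14 of 15 negative genes kept their direction, where 48.4% of all genes were higher in that pair. Whether the IL-9 difference itself changed with Dex was tested by the interaction in limma, which called 0 of 13575 probe sets (215 at an unadjusted p under 0.05). Its value was -0.65 (SE 0.28) for Gzma, -0.31 (SE 0.31) for Bcl3 and 1.30 (SE 0.34) for Pcm1, each with an adjusted p of 1.00. Without the array Dex 1, which leaves Dex 2 alone in its group, the interaction called 271 probe sets and the comparison within Dex 668.

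**Figure D3:**
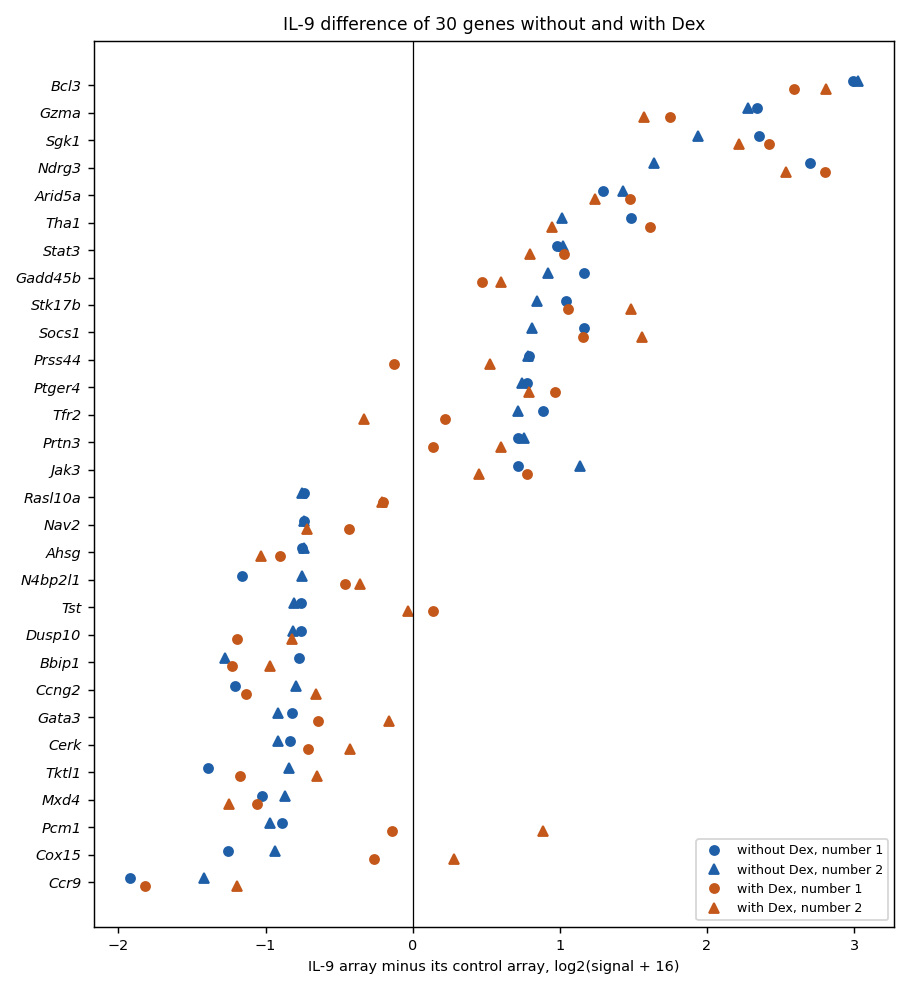
Difference (horizontal, log2 of signal + 16) between each IL-9 array and its control array of the same number for 30 genes (vertical), without Dex in blue and with Dex in orange, circles for number 1 and triangles for number 2. The 15 upper genes lie right of 0 in blue by selection, 13 of them also in both orange points, and 12 of the 15 lower genes lie left of 0 in all points.

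CCL1 shared the unstimulated arrays with IL-9, so its values are given only side by side. In CCL1 1, Bcl3 was at 8.31, Gzma at 20.2, Ndrg3 at 84.2 and Ccr9 at 278, near the unstimulated signals. Sgk1 was at 70.7, above both unstimulated arrays and below both IL-9 arrays. Stat3 was at 271, Socs1 at 23.5 and Ptger4 at 152, the last below the unstimulated 272 and 246. Of the 15 genes with negative differences, 9 were lower in CCL1 1 than in both unstimulated arrays: Cox15 (81.2), Pcm1 (36.2), Tktl1 (39.3), Rasl10a (7.43), Bbip1 (97.8), Ahsg (18.5), Tst (6.11), Cerk (58.4) and Gata3 (190). The median difference of the 15 between CCL1 1 and unstimulated 1 was -0.65. For the 15 genes with positive differences it was 0.14, and 7 of them were above both unstimulated arrays. Over all genes the median difference between CCL1 1 and the mean of the unstimulated arrays was -0.027. Its baseline is not that of the medians of the 15 genes, so the values are not directly comparable. The share of all genes beyond both unstimulated arrays was not counted. Both sets of 15 were chosen on the same unstimulated arrays, so these counts do not measure a response shared by CCL1 and IL-9.

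The signalling chain was followed through lists of known genes, from receptor to targets. Signals of Il9r, the alpha chain of the receptor, were low throughout, at 15.3 and 7.85 in unstimulated and 1.67 and 7.76 in IL-9 arrays (-0.41, SE 0.22, adjusted p = 0.996). The common gamma chain Il2rg was not analysed here. Of 12 receptor and kinase genes 9 were kept and none passed; 2 had IL-9 arrays above and 1 below (16.3% and 19.6% of all genes), and the median difference was 0.062 against -0.018 for all genes. Jak3 had the largest value and Stam, an adaptor of JAK kinases, gave 53.5 and 69.3 against 91.4 and 68.9.

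Of the 6 STAT genes kept, Stat3 stood at 1.00, and the others lay between -0.32 (Stat5b) and 0.33 (Stat2, at 19.4 and 13.6 against 25.9 and 23.5). Stat4 had 479 and 156 against 484 and 113 and differed between numbers, not between treatments. Among 12 SOCS and PIAS genes Socs1 stood at 0.99, with the median at 0.032. No member of either list passed.

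The list of known STAT3 and STAT5 targets had 22 of 30 members kept. Bcl3 and Gzma passed (2 of 22 genes, beside 3 of 7507 over all genes). IL-9 arrays were above in 8 members and below in 1, or 36.4% and 4.55% against 16.3% and 19.6% of all genes, and 17 were higher in both pairs, against 25.7%. The fitted difference was above 0 in 19 of 22 members and, within Dex, in 18 (46.4% and 44.0% of all genes). The median difference was 0.34 without and 0.38 with Dex. This list was written with earlier results of these arrays known, so neither its passing members nor its direction are independent evidence. Junb, an AP-1 subunit, had 37.8 and 33.1 against 67.5 and 71.2 (0.73, adjusted p = 0.987). Bcl6, a repressor of helper T cell genes, had 6.15 and 7.82 against 17.9 and 20.6. Fos had 1.02 and 15.2 against 41.1 and 30.3 (1.16, SE 0.28, adjusted p = 0.754, and 0.47 or 2.67 with 64 or 1 added), and its IL-9 arrays were both higher although the unstimulated arrays differed widely. Ier3 had 19.3 and 36.6 against 45.3 and 52.9.

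Il10, an anti-inflammatory cytokine and STAT3 target, was seen in number 1 only. Its signals were 14.9 and 1.49 in unstimulated arrays and 117 and 5.91 in IL-9 arrays, with differences of 2.10 and 0.33 (fit 1.21, SE 0.61, adjusted p = 0.996). With Dex the signals were 17.2 and 16.1, and 114 and 68.6 when IL-9 was added. Only 4 of the 26 cytokine and receptor genes were kept, the other 3 being Tnf (9.46 and 13.1 against 1.92 and 3.86), Il6st (36.3 and 31.1 against 50.5 and 42.0) and Il6ra (13.6 and 24.4 against 13.0 and 14.1). None of the 4 passed.

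Relatives of Bcl3, Gzma and Sgk1 did not pass the threshold. Besides Bcl3, the 12 NF-kB and IkB genes kept lay between -0.35 (Nfkbia) and 0.53 (Rel, a subunit with 1.43 and 3.76 against 14.4 and 7.72), and none passed. Of 18 granule genes on the arrays 7 were kept, and the 6 other than Gzma lay between -0.12 and 0.20. Perforin, Prf1, had 15.5 and 3.35 against 8.82 and 10.3. Of the SGK and NDRG list 7 of 12 were kept, and apart from Sgk1 and Ndrg3 they lay between -0.33 and 0.068.

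**Figure D4:**
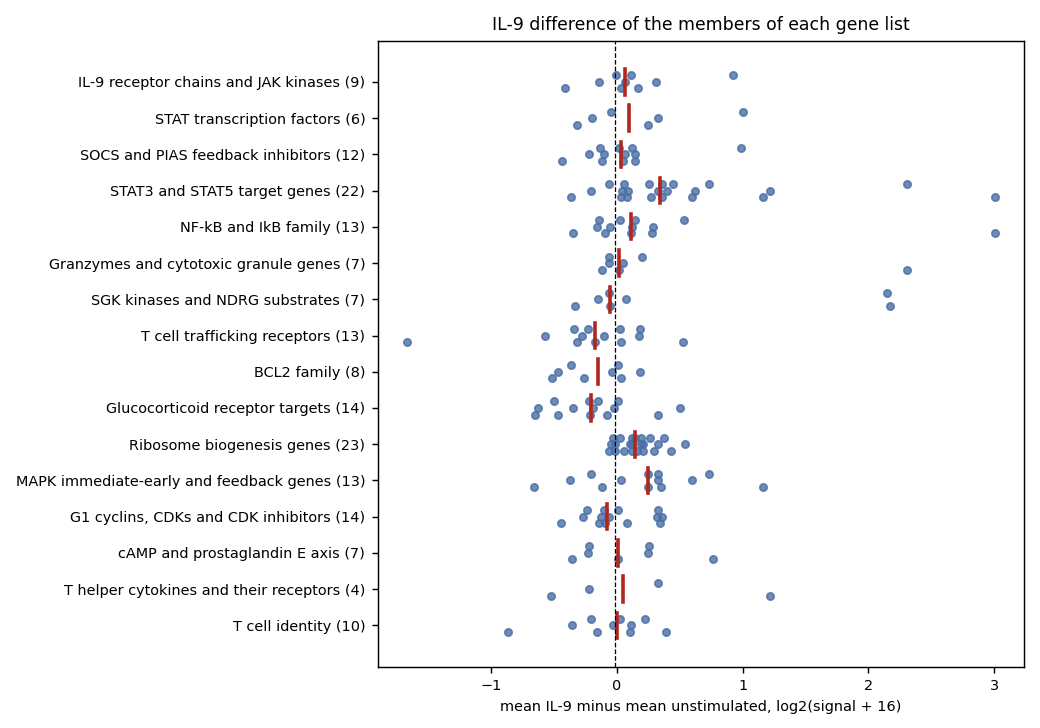
Difference between IL-9 and unstimulated arrays (horizontal, log2 of signal + 16) of the kept members of 16 gene lists, 1 point per gene (vertical offsets only separate points), with the number of members in brackets. Red bars are list medians and the dashed line is the median of all 7507 genes, -0.018; Bcl3, Gzma, Sgk1 and Ndrg3 lie above 2 while the medians lie between -0.21 and 0.34.

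T cell trafficking receptors had 13 of 22 members kept. Besides Ccr9, Cxcr4, the receptor of CXCL12, had 373 and 297 against 302 and 229 (-0.32), and the integrin chain Itgb1 had 181 and 200 against 269 and 292 (0.52, SE 0.15, adjusted p = 0.984). Ccr8, the receptor of CCL1, had 405 and 159 against 306 and 86.9, lower with IL-9 in each pair and overlapping between groups. Of the 8 BCL2 family genes kept the median was -0.15, with Bbc3, which encodes the death protein PUMA, at 27.8 and 31.7 against 12.7 and 19.4 (-0.52, SE 0.27, adjusted p = 0.996).

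Ribosome biogenesis genes, which MYC raises in growing cells, had 23 of 24 members kept, with 6 above, 0 below and 14 higher in both pairs (16.3%, 19.6% and 25.7% of all genes). Their median was 0.14, and 0.22 within Dex, and none passed. Nolc1, a nucleolar chaperone, had 566 and 562 against 698 and 696, and Polr1a, the large subunit of RNA polymerase I, 63.2 and 69.8 against 92.5 and 116. Bop1 had 328 and 351 against 419 and 507. Of the 13 MAPK genes kept 3 were above and 2 below (16.3% and 19.6% of all genes). In both pairs 7 were higher and 4 lower (25.7% and 30.0% of all genes). The fitted difference was above 0 in 9 of 13, with a median of 0.25 and the highest, 1.16, for Fos. Among the lower members, Spred2, an inhibitor of the RAS pathway, had 134 and 213 against 87.0 and 118 (-0.66). Dusp6, the ERK phosphatase, had 204 and 175 against 141 and 143 (-0.37). No member passed.

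In the other lists no member passed. The G1 list (14 kept) had a median of -0.079, with the fitted difference above 0 in 6 members (46.4% of all genes). IL-9 arrays were above in 2 members and below in 3 (16.3% and 19.6% of all genes). Cdk4, a kinase of G1 progression, had 717 and 714 against 918 and 900 (0.34). Rb1, the lowest of the list, had 119 and 108 against 64.9 and 96.0 (-0.44). In the cAMP list (7 kept), besides Ptger4, Prkar1a, a regulatory subunit of protein kinase A, had 797 and 804 against 946 and 967 (0.25), and the phosphodiesterase Pde4a 11.1 and 12.7 against 5.10 and 6.36. Of the 10 T cell genes kept, Thy1 had 1357 and 1111 against 1042 and 878, and Zap70 275 and 264 against 414 and 310. The median of these 10 was -0.0039.

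Glucocorticoid receptor targets differed between the numbers, not only between treatments. The mean centred level of the 14 kept members (log2 scale, 0 being the mean of the 11 arrays) was 0.38 in unstimulated 1 and 0.083 in IL-9 1, against -0.69 in unstimulated 2 and -0.78 in IL-9 2, while Dex 1 and Dex 2 were at 0.32 and 0.30. Both number 1 arrays labelled without Dex thus lay far above both number 2 arrays, so these targets are compared within a number. Tsc22d3, which encodes the glucocorticoid-induced leucine zipper, had 347 and 230 in number 1 and 109 and 58.7 in number 2, unstimulated and IL-9 in that order. Gpr65, an acid-sensing receptor raised in dying thymocytes, had 481 and 313, and 109 and 62.9. Bcl2l11, encoding the death protein BIM, had 420 and 330, and 153 and 95.5.

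All 3 genes were lower with IL-9 in each number, although IL-9 1 lay above unstimulated 2. Nfkbia, the classical inhibitor of NF-kB, followed the same order at 893 and 779, and 494 and 341. Over the list 6 of 14 members were lower and 2 higher in both pairs (30.0% and 25.7% of all genes), with medians of -0.36 in number 1 and 0.029 in number 2, and none passed. Against this order, Mt1, a metallothionein, had 3523 and 5552, and 2681 and 3419. Rgs2 had 68.8 and 21.1 in number 1 and 10.6 and 14.5 in number 2. The receptor Nr3c1 had 228 and 156 in unstimulated and 249 and 132 in IL-9 arrays (-0.050, SE 0.38, adjusted p = 0.999). Each group holds 1 array of each number, and what the numbers stand for was not tested.

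**Figure D5:**
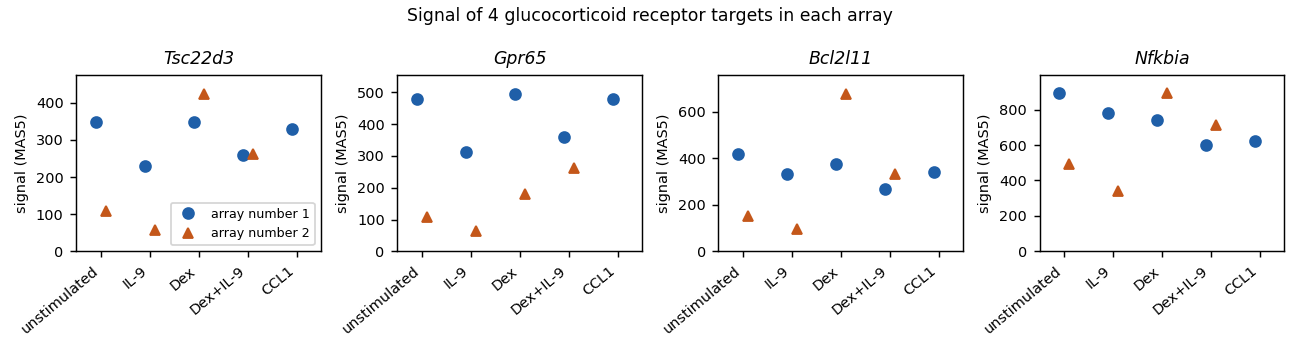
Signal (vertical axis, linear, from 0) of 4 glucocorticoid receptor targets in each array of 5 groups, circles for number 1 and triangles for number 2. Unstimulated 1 and IL-9 1 lie above unstimulated 2 and IL-9 2 in all 4 genes (Tsc22d3 at 347 and 230 against 109 and 58.7), and within each number the IL-9 array is the lower. The 4 genes do not stand for the list, in which 6 of 14 members were lower and 2 higher with IL-9 in both numbers.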

How the data were processed

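Total RNA of the 12 samples was measured on Affymetrix arrays with biotin-labelled cRNA. The deposited files give each probe set's intensity as a linear MAS5 signal (submitters' processing notes, which name no version). Trimmed means (2% cut at both ends) were 100 to 100.1 on every array, so these values cannot show a shift common to all genes. Control probe sets (64) were dropped, leaving 22626, of which those with a mean log2(signal + 16) above the 40th percentile entered the fit. The added 16 shrinks differences of dim genes. Of all probe sets 20380 had 1 gene symbol, 691 several and 1555 none. A gene was named by its probe set with the highest mean.

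Group means were fitted in limma 3.58.1 under R 4.3.3 to the 11 arrays that share a table, with an intensity trend (5 residual and 6.47 prior degrees of freedom), tested on simulated data. The CCL1 array 2 lies in another table, filed under another array platform, and entered an alternative only.

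Named genes were those past the threshold, Bcl3, Gzma, Sgk1, Ccr9, Il9r, Il2rg and Nr3c1, the 15 largest differences in each direction shared by both numbered pairs, the 6 most opposed, and up to 6 members per list, from which some members were left out after their direction was seen to turn without 1 array. Others that turned were kept, such as Tsc22d3, Gpr65, Bcl2l11, Nfkbia and Ccr8. The members shown are therefore no even sample of their lists. Ptprc, other cell markers, Tufm and Sema4b were named after their values were seen. The genes and lists were chosen with earlier results of these data known. The text on markers uses a signal of 50 chosen after seeing the data. Promoter windows are RefSeq's and the arrays name no genome build.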

Additional observations from a re-analysis of the deposited data

How the results depend on the processing

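Bcl3, Gzma and Sgk1 kept their calls under every alternative that tested them (the filter at the 60th percentile dropped Bcl3), with adjusted p up to 0.0102, 0.0189 and 0.0283. The count of 3 was 2 to 4 under the other settings and 6 with the replicate block within Dex status, where Ndrg3, Arid5a and Stat3 also passed (adjusted p = 0.00338, 0.00814 and 0.0361). With 1 replicate block over all arrays the count was 3. The numbers of the arrays do not pair them by a stated source, and the correlation of the deviations between groups ranged from -0.0051 to 0.31, 0.24 for unstimulated and IL-9. Without 1 array the count ranged from 3 to 5, with 5 without IL-9 replicate 2, where Ndrg3 passed (adjusted p = 0.00263). Ccr9 passed with median centring (0.0462), the 4 arrays alone (0.0482), CCL1 2 added (0.0497), 1 probe set per gene (0.0415) and without either Dex array (0.0181 and 0.0187). Within Dex the count of 3 was 5 with a pseudocount of 64, median centring or CCL1 2 added, 6 with the replicate block, 8 with the block within Dex status, and 2 to 668 without 1 array (668 without Dex replicate 1, 5 without either IL-9 array). The interaction called 0 under all alternatives except an omitted array (0 to 271). Directions turned with median centring for Nr3c1 (0.0026), Sirt4 (0.0133) and St8sia5 (0.0385), with a pseudocount of 64 for Sirt4 (0.0015) and St8sia5 (0.0060), and with quantile normalization for St8sia5 (0.0011). Without 1 array they turned for Nr3c1 (-0.47 to 0.37), Tsc22d3 (-1.51 to 0.20), Gpr65 (-1.66 to 0.40), Bcl2l11 (-1.28 to 0.35), Nfkbia (-0.93 to 0.22), Rgs2 (-1.34 to 0.34), Stat4 (-1.18 to 0.78), Ccr8 (-1.40 to 0.25), Il10 (-0.086 to 2.51), Prf1 (-0.30 to 0.051), Il6ra (-0.45 to 0.0008), Sirt4 (-0.65 to 0.57), Sema6c (-0.45 to 0.95), St8sia5 (-0.50 to 0.47), S1pr4 (-0.36 to 0.50), Hopx (-0.61 to 0.41) and Clip4 (-0.50 to 0.32), in which an omitted array leaves the numbers unbalanced. With a pseudocount of 1 or 64 the difference of 42 of 75 named genes moved by over 1.5 times. The low signals, such as Prss44, Tfr2 and Prtn3, and the number of arrays limit what can be seen.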

Other observations

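The 6 genes whose pairs differed most in opposite directions were Sirt4, Sema6c, St8sia5, S1pr4, Hopx and Clip4. All were dim, with no signal above 40 in the 4 arrays. Sema6c, a semaphorin, had 21.7 and 5.11 in number 1 and 6.07 and 39.6 in number 2, unstimulated and IL-9 in that order. Sirt4, a mitochondrial sirtuin, had 23.0 and 2.77, and 6.16 and 27.7. S1pr4, a sphingosine-1-phosphate receptor, had 12.5 and 1.29, and 1.34 and 15.5. The fitted differences of the 6 lay between -0.10 and 0.25, and all 6 changed sign when 1 array was left out. The 6 genes were chosen for opposed pairs, so both traits describe that choice and are no separate result.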
